A study of Mus musculus with 96 samples.

Results

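The choroid plexus epithelium genes were a list of 34 symbols, and every row of the count tables whose symbol was on it was taken. All 34 symbols were found among the 32594 rows of each table. Wdr86 stood on 2 rows, which were kept apart, so 35 rows were followed.

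The choroid plexus is a fold of vascular tissue covered by a single layer of epithelium that hangs into the brain ventricles and secretes cerebrospinal fluid. Its epithelial cells pump ions with membrane transporters, let water follow through aquaporin, seal the sheet with claudin junctions and export carrier proteins such as transthyretin. In a brain dissection the plexus of the lateral ventricle lies against the hippocampus and that of the third ventricle lies above the thalamus.

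The libraries came from male C57BL/6 mice, 8 to 10 weeks old. In the TBI groups a craniectomy was made and the cortex was struck by the piston of a controlled cortical impact device. Sham mice had anesthesia and a scalp incision with no craniectomy, so injury and skull opening cannot be told apart. VH groups received vehicle, and CD groups received candesartan, an angiotensin receptor blocker, at 0.1 mg/kg/day from 6 h after injury. Mice taken at 3 dpi (days post-injury) were injected at 6, 24 and 48 h, whereas those taken at 29 dpi were injected at 6 h and had an osmotic pump from 24 h on. All were perfused with saline before dissection of the ipsilateral hippocampus, thalamus and hypothalamus. At each region and time 4 libraries were made for each of Sham + VH and TBI + VH, and likewise of Sham + CD and of TBI + CD, 96 in all. The study kept the 4 samples of best RNA quality per group. The labels did not tie a replicate number or a region to a mouse, so p-values measure the spread between these libraries.

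Levels are given as CPM, each count scaled by the total of its library. Totals ran from 17150610 to 31253784 counts at 3 dpi and from 6663629 to 38589791 at 29 dpi, so 3 counts in the shallowest library were worth 0.450 CPM. Summed markers of hippocampal neurons lay between 472 and 660 CPM in the hippocampus at 3 dpi, against 68.1 to 112 in the thalamus and 46.1 to 55.2 in the hypothalamus. Hypothalamic neuron markers summed to 98.0 CPM in Sham + VH replicate 3 of the hippocampus at 29 dpi, where the median library held 3.36. Ttr was at 52.3 CPM in that library. At 3 dpi, where the median hippocampal library held 3.65 CPM of these markers, TBI + CD replicate 1 with 18.3 and Sham + VH replicate 4 with 13.1 held the most, and both were among the 4 libraries with the most Ttr. The part of neighboring tissue in the results was not tested.

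The start regions of the genes were looked up in RefSeq (GRCm38.p6, the release family of mm10), where 27 of the 34 symbols had at least 1 promoter, 34 promoters in all. Ttr, Cdh3, Folr1, Clic6, Sostdc1, Slc26a11 and Lbp were not matched. The 250 bases before the start were searched on both strands for TAATC, the core that OTX-type homeodomain proteins bind, since Otx2 is itself on the list. Of the 34 promoters 5 held it, or 14.7%, against 6519 of all 32851 mouse promoters, or 19.8%, and those 5 belonged to Htr2c, Kcne2, Kcnj13, Otx2 and Tmem72. The longer TAATCC, which contains TAATC, was in 1 of the 34 (2.94%) and in 6.25% of all. A match of letters is a description and not a binding site. A further promoter of Kcne2 held no match and is not shown. The matched promoter of Kcne2 and the promoter of Kcnj13, a pair of potassium channel genes among the list's largest changes, are shown 5′ to 3′. The matched letters, read as TAATC or as GATTA from the other strand, are in capitals.
Kcne2: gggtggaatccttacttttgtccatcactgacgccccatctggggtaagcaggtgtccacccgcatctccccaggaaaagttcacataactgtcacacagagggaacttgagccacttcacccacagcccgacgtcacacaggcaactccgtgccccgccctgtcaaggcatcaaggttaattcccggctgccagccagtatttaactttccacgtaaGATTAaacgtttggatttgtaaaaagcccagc
Kcnj13: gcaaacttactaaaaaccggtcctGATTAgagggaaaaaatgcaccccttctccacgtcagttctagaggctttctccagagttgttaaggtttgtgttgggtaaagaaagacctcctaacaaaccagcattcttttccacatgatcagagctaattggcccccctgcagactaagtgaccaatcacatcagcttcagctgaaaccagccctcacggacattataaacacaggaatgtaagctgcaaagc
The Kcne2 bases are chr16:92292139-92292388 on the plus strand with the match at -32, and the Kcnj13 bases are chr1:87394730-87394979 on the minus strand with the match at -226. Neither stretch overlapped an exon of the GENCODE vM21 annotation. The gene Kcne2 spans chr16:92292389-92298129, and Kcnj13 spans chr1:87386363-87394729 inside Gigyf2, which is transcribed from the other strand.

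In the hippocampus at 3 dpi most of the list was high in some libraries and far lower in others. Ttr, the transthyretin that carries thyroid hormone and retinol-binding protein in cerebrospinal fluid, was measured at 6099, 3830, 151 and 4071 CPM in the 4 Sham + VH libraries, 4.396, 129.9, 59.4 and 27.1 in those of TBI + VH, 34.5, 35.9, 78.6 and 60.1 in those of Sham + CD and 2395, 20.5, 8.13 and 131 in those of TBI + CD. Thus 3 of the 4 Sham + VH libraries and TBI + CD replicate 1 were high, and all the others were low. Kcne2, a potassium channel accessory subunit of the apical membrane, was measured at 30.2, 23.5, 0.608 and 26.1 CPM in the 4 Sham + VH libraries, 0.0423, 0.711, 0.2200 and 0.2997 in those of TBI + VH, 0.223, 0.198, 0.292 and 0.375 in those of Sham + CD and 11.5, 0.196, 0.151 and 0.849 in those of TBI + CD. Slc4a5, a sodium bicarbonate cotransporter, was measured at 45.6, 37.4, 1.26 and 37.7 CPM in the 4 Sham + VH libraries, 0.0845, 0.914, 0.5500 and 0.225 in those of TBI + VH, 0.179, 0.357, 0.779 and 0.667 in those of Sham + CD and 22.3, 0.117, 0.301 and 1.496 in those of TBI + CD. The same 4 libraries stood above the rest for these genes, with Sham + VH replicate 3 always among the low ones.

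Folr1, the folate receptor that passes folate into cerebrospinal fluid, was measured at 47.5, 38.1, 3.12 and 42.1 CPM in the 4 Sham + VH libraries, 0.803, 2.08, 1.03 and 1.35 in those of TBI + VH, 0.759, 0.991, 1.32 and 0.667 in those of Sham + CD and 25.1, 0.939, 0.151 and 1.54 in those of TBI + CD. Aqp1, the apical water channel, was measured at 38.1, 30.6, 1.38 and 32.8 CPM in the 4 Sham + VH libraries, 0.423, 1.17, 0.9900 and 0.899 in those of TBI + VH, 0.6701, 0.634, 0.438 and 0.583 in those of Sham + CD and 18.4, 0.4302, 1.09 and 2.06 in those of TBI + CD. Neither TBI + VH nor Sham + CD overlapped Sham + VH for these genes, since Sham + VH replicate 3 still lay above each of their libraries. Cldn2, the claudin of leaky junctions, was measured at 32.99, 28.5, 1.904 and 34.9 CPM in the 4 Sham + VH libraries, 1.31, 1.07, 0.5500 and 1.24 in those of TBI + VH, 1.03, 1.03, 1.32 and 1.12 in those of Sham + CD and 17.8, 0.8603, 1.17 and 1.54 in those of TBI + CD. Cldn1, a tighter claudin, was measured at 11.1, 9.95, 1.62 and 12.4 CPM in the 4 Sham + VH libraries, 2.198, 1.68, 1.47 and 1.57 in those of TBI + VH, 2.14, 1.78, 1.802 and 2.04 in those of Sham + CD and 8.06, 1.49, 1.73 and 1.66 in those of TBI + CD. Both claudins followed the split, but the low libraries kept more Cldn1, and there Sham + VH replicate 3 lay among the TBI + VH values and below those of Sham + CD.

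Otx2, the homeodomain factor that keeps choroid plexus identity, was measured at 19.5, 15.9, 2.59 and 17.4 CPM in the 4 Sham + VH libraries, 0.592, 1.88, 0.917 and 1.39 in those of TBI + VH, 0.402, 0.911, 1.46 and 0.458 in those of Sham + CD and 12.1, 0.508, 0.151 and 1.09 in those of TBI + CD. Krt18, a keratin of simple epithelia, was measured at 11.6, 9.17, 1.26 and 10.5 CPM in the 4 Sham + VH libraries, 0.3804, 1.22, 0.843 and 0.862 in those of TBI + VH, 0.759, 0.872, 0.779 and 0.5000 in those of Sham + CD and 5.16, 0.547, 0.376 and 1.13 in those of TBI + CD. Both separated the same 4 libraries from the other 12. Slc31a1, the copper transporter of most cell types, was measured at 57.2, 49.98, 21.6 and 58.03 CPM in the 4 Sham + VH libraries, 29.6, 21.6, 27.6 and 24.95 in those of TBI + VH, 21.6, 20.1, 22.3 and 18.3 in those of Sham + CD and 40.1, 24.5, 31.8 and 30.1 in those of TBI + CD. Htr2c, a serotonin receptor of the plexus that neurons also make, was measured at 101, 64.8, 41.6 and 81.4 CPM in the 4 Sham + VH libraries, 43.2, 33.7, 43.7 and 42.7 in those of TBI + VH, 38.6, 40.7, 52.1 and 20.5 in those of Sham + CD and 47.3, 30.4, 42.5 and 44.6 in those of TBI + CD. The low libraries kept at least 18.3 CPM of Slc31a1 and 20.5 CPM of Htr2c, and for Htr2c TBI + CD replicate 1 lay below Sham + CD replicate 3.

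**Figure D1:**
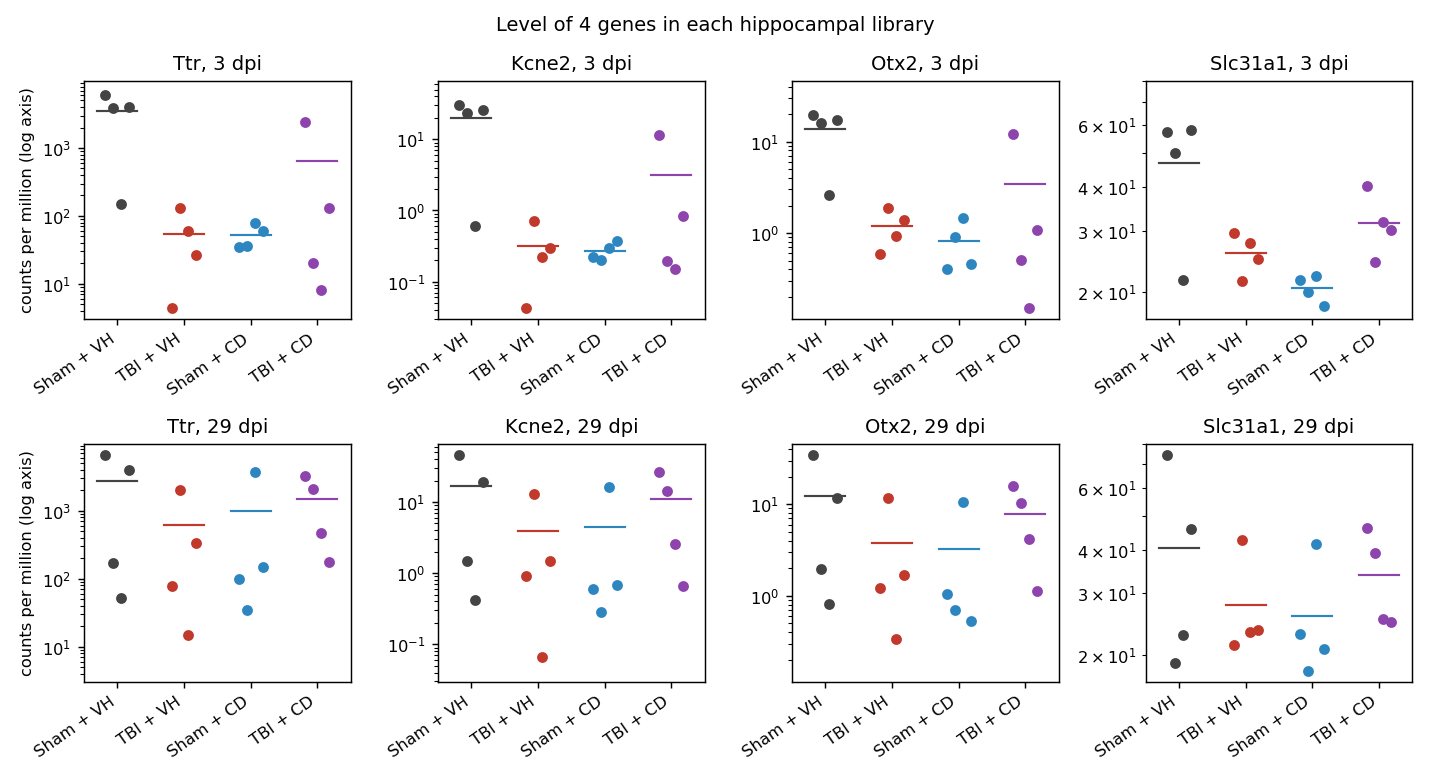
Level of Ttr, Kcne2, Otx2 and Slc31a1 in each hippocampal library, in CPM on a log axis, by group and time; points are libraries (4 per group) and short lines group means. At 3 dpi 3 Sham + VH libraries and 1 TBI + CD library sit high, and at 29 dpi every group holds high and low libraries.

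Most of the list had the same high libraries in the hippocampus at 3 dpi. Of the 35 rows 31, Ttr included, had the same 4 highest libraries as Ttr, the exceptions being Htr2c, Slc5a5, Slc26a11 and Rbp4. By the same count 8 rows did in the hippocampus at 29 dpi, 1 and 25 in the thalamus at 3 and 29 dpi, and 1 in the hypothalamus at either time. The number of high libraries differed between these sets, so a fixed 4 can cut across them. In the hippocampus at 29 dpi 32 of the 35 rows had the same highest library as Ttr. In the thalamus at 3 dpi 21 of the 35 had the same 3 highest. At 3 dpi in the hippocampus the list without Ttr summed to 278 to 1306 CPM in Sham + VH and 215 to 781 in TBI + CD, and to no more than 257 in any library of the other groups. From the lowest to the highest hippocampal library the level differed by over 100 times for 9 rows (with the lowest library set to 3 counts where it had fewer), by 10 to 100 times for 16 and by up to 10 times for 10. In these bulk samples fewer choroid plexus cells and less RNA per cell cannot be told apart.

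Against Sham + VH, 31 of the 35 rows fell in TBI + VH at 3 dpi (edgeR's quasi-likelihood test, Benjamini-Hochberg adjusted p under 0.05 and a log2 fold change below -0.32) and none rose, where 1.72% of the 16756 genes tested fell by this rule and 8.99% rose. All 35 log2 fold changes were negative, as were 53.2% of those of all genes, with a median of -3.29 against -0.01 over all genes. Sham + VH and TBI + VH did not overlap for 16 rows, and 3.12% of all genes were separated in that direction. Leaving out any library of the 16 kept the count between 28 and 32.

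Among the secreted proteins 5 of 6 fell. Ttr changed by -6.04 ± 1.53 (adjusted p = 0.0117) on the log2 scale, F5, a coagulation cofactor, by -4.94 ± 1.07 (adjusted p = 0.00379), and Col8a1, a short-chain collagen, by -4.19 ± 0.94 (adjusted p = 0.00516). Sostdc1, an antagonist of BMP and Wnt signals, changed by -2.98 ± 0.58 and Lbp, which binds bacterial lipopolysaccharide, by -1.95 ± 0.58. Rbp4, the plasma carrier of retinol, was the exception at -0.07 ± 0.17 (adjusted p = 0.862).

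Of the 14 channels, transporters and enzymes 12 fell. The largest differences were those of Kcnj13, an inwardly rectifying potassium channel, at -6.20 ± 1.28 (adjusted p = 0.00272), Slc4a5 at -6.18 ± 1.31 (adjusted p = 0.00331), and Kcne2 at -6.07 ± 1.24 (adjusted p = 0.0025). Slc16a8, a lactate transporter, changed by -5.75 ± 1.31, Aqp1 by -4.92 ± 1.004, Clic6, a chloride channel protein, by -4.25 ± 0.99 and Steap1, a metalloreductase, by -3.99 ± 0.87. Trpv4, a cation channel that senses osmolarity, changed by -3.19 ± 0.67 and Slc13a4, a sulfate transporter, by -2.28 ± 0.61. Differences were smaller for Car12, a carbonic anhydrase, at -1.09 ± 0.25, for Slc29a4, a monoamine transporter, at -0.94 ± 0.18 and for Slc31a1 at -0.88 ± 0.22. Slc5a5, the iodide symporter, at -0.28 ± 0.13 (adjusted p = 0.203) and Slc26a11, an anion transporter, at -0.01 ± 0.10 (adjusted p = 0.961) did not pass.

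All 4 receptor genes fell. Folr1 changed by -4.69 ± 1.04 (adjusted p = 0.00463), Prlr, the prolactin receptor, by -3.29 ± 0.65 (adjusted p = 0.00197), Kl, the FGF23 co-receptor klotho, by -2.89 ± 0.58 (adjusted p = 0.00222), and Htr2c by -0.85 ± 0.24 (adjusted p = 0.0248). The 5 genes of junctions, adhesion and keratins also fell. Cdh3, P-cadherin, changed by -6.61 ± 1.35, Cldn2 by -4.59 ± 0.92, Krt18 by -3.34 ± 0.69, Krt8 by -2.67 ± 0.66 and Cldn1 by -2.37 ± 0.54. Both transcription factors fell, Otx2 with a log2 fold change of -3.58 ± 0.89 (adjusted p = 0.0103) and Msx1, a homeobox gene, of -1.84 ± 0.37 (adjusted p = 0.002). Tmem72, a membrane protein, changed by -6.41 ± 1.46, Calml4, a calmodulin-like protein, by -2.42 ± 0.59 and Wdr86 by -4.10 ± 0.99, whereas its second row, at -3.13 ± 1.08, did not pass.

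Sham + CD was also below Sham + VH in many members. In Sham + CD 26 of the 35 rows fell and none rose, and 1.41% of all genes fell by this rule and 0.0836% rose. The median log2 fold change was -4.05. Sham + CD lay wholly below Sham + VH for 23 rows, and 5.42% of all genes did. Kcne2 changed by -6.17 ± 1.27 (adjusted p = 0.0266), Folr1 by -5.12 ± 1.09 (adjusted p = 0.0286), Otx2 by -4.09 ± 0.94 (adjusted p = 0.035) and Slc31a1 by -1.17 ± 0.22 (adjusted p = 0.0233). Ttr, at -6.06 ± 1.53 (adjusted p = 0.0546), Cldn1, at -2.15 ± 0.54 (adjusted p = 0.0531), and Htr2c, at -0.92 ± 0.24 (adjusted p = 0.0683), were past the fold threshold but not the other. The count fell to 0 when any 1 of Sham + VH replicates 1, 2 and 4 or of the 4 Sham + CD libraries was left out, and rose to 32 without Sham + VH replicate 3. This comparison and the one for TBI + VH share the Sham + VH libraries, so their common direction is not independent.

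In TBI + CD 12 of the 35 rows fell against Sham + VH and none rose, and 1.86% of all genes fell and 10.3% rose. Krt18 changed by -2.24 ± 0.64 (adjusted p = 0.0212), Sostdc1 by -2.13 ± 0.55 (adjusted p = 0.0117), Prlr by -2.02 ± 0.60 (adjusted p = 0.0277) and Msx1 by -1.29 ± 0.36 (adjusted p = 0.0183). Ttr, at -2.49 ± 1.29 (adjusted p = 0.21), and Kcne2, at -2.74 ± 0.93 (adjusted p = 0.0509), did not pass. No row separated the groups, with TBI + CD replicate 1 high and Sham + VH replicate 3 low, where 4.85% of all genes did in this direction. Without that library 32 rows fell, and without Sham + VH replicate 3 the count was 29. It was 2 when replicate 1 of Sham + VH, or replicate 3 or 4 of TBI + CD, was left out. It was 3 when replicate 4 of Sham + VH or replicate 2 of TBI + CD was left out, and 5 for replicate 2 of Sham + VH.

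**Figure D2:**
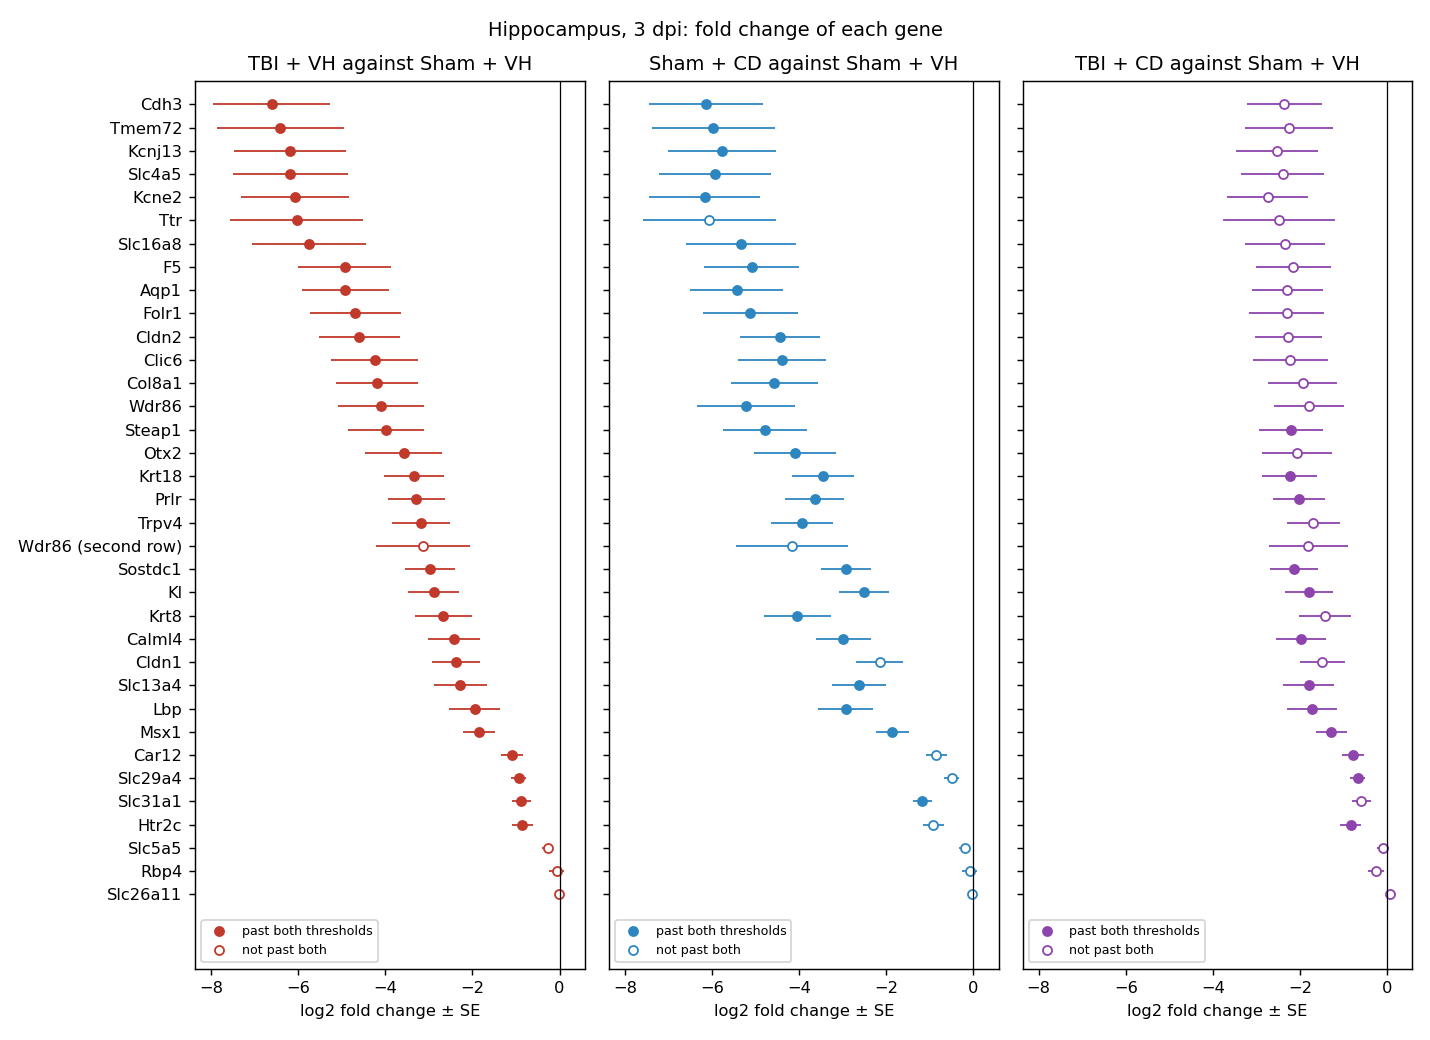
Log2 fold change with its standard error of each row in the hippocampus at 3 dpi, for TBI + VH, Sham + CD and TBI + CD against Sham + VH (4 libraries per group); filled points passed both thresholds, 31, 26 and 12 of 35. Slc5a5, Rbp4 and Slc26a11 lie near 0 in all 3 panels.

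TBI + CD did not differ from TBI + VH in any of the 35 rows by the adjusted test, which called 0.0% of all genes, although 14 rows, beside 4.37% of all genes, had an unadjusted p under 0.05. In edgeR's test Ttr stood at 3.55 ± 1.37 (adjusted p = 0.999). DESeq2 called 0 rows and 0.0% of all genes. Against Sham + CD 4 rows rose in TBI + CD, where 14.4% of all genes rose. They were Krt8 at 2.62 ± 0.84, Trpv4 at 2.24 ± 0.74, Aqp1 at 3.14 ± 1.13 and Wdr86 at 3.41 ± 1.23. The count was 0 without TBI + CD replicate 1 or Sham + CD replicate 1 or 4, and 1 without Sham + CD replicate 2 or 3. Leaving out replicate 4 of TBI + CD gave 10, replicate 3 gave 14, and replicate 2, or replicate 3 of Sham + VH, gave 17. The interaction of injury and candesartan was called for no row and for 0.0% of all genes. It had an unadjusted p under 0.05 for 32 of the 35 rows, beside 13.1% of all genes, and a smallest adjusted p of 0.0616. DESeq2 called it for 25 rows and 1.73% of all genes. Without Sham + VH replicate 3 it was called for 30 rows, and without TBI + CD replicate 2 or 3 for 24 or 22.

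The level left in the low libraries differed between the genes. In Sham + CD, where every library was low, Cdh3 was counted 0 to 3 times per library, against 0.243 to 5.96 CPM in Sham + VH. The Sham + CD mean was under 1% of the highest Sham + VH library for 3 rows, Cdh3, Ttr and Kcne2, and under 10% for 24. Kl kept 13.0% and Msx1 19.9%. Slc31a1 kept 35.4%, Htr2c 37.5%, Car12 43.3% and Slc29a4 58.4%. Rbp4, Slc5a5 and Slc26a11 kept 68.6%, 74.8% and 86.4%. The sham groups overlapped for these 3, for Slc31a1, Htr2c, Car12 and Slc29a4, and for Cldn1, Trpv4, Col8a1, Slc16a8 and the second Wdr86 row. The share sets a mean against the single highest library, and for Rbp4 the Sham + CD median of 5.75 CPM was above the Sham + VH median of 5.54.

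**Figure D3:**
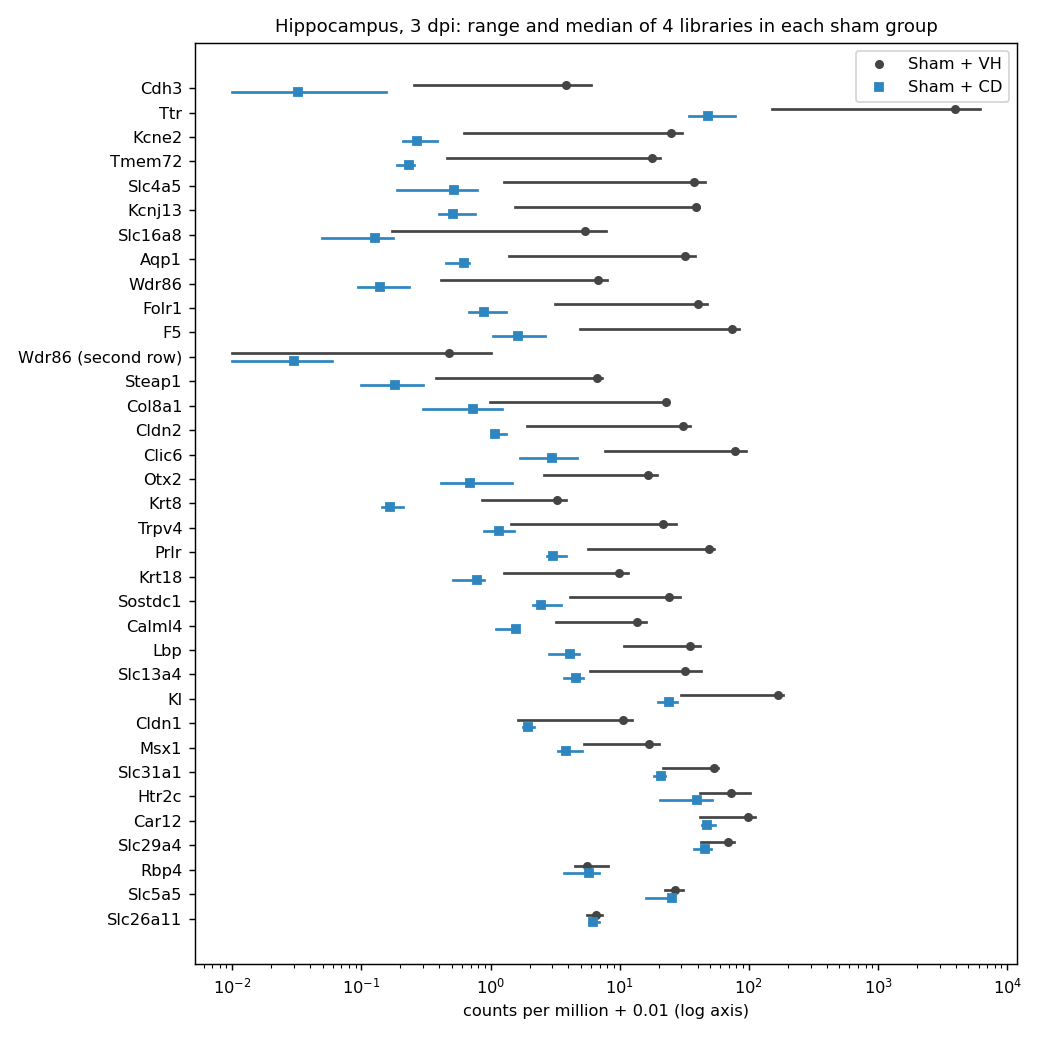
Range (line) and median (point) over the 4 libraries of each sham group in the hippocampus at 3 dpi, in CPM plus 0.01 on a log axis, ordered by the share of the highest Sham + VH level left in Sham + CD. The share runs from 0.800% for Cdh3 to 86.4% for Slc26a11.

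Levels per kilobase of exon allow genes to be set side by side. In the hippocampus of Sham + VH at 3 dpi Ttr led the list with a mean of 2983 CPM per kb. Kcnj13 followed at 23.8, Slc29a4 at 22.4, Clic6 at 16.6, Kl at 14.8 and Folr1 at 14.2. At the low end, apart from the second Wdr86 row at 0.0954, were Tmem72 at 0.819 and Cdh3 at 0.789 CPM per kb. The spread of the 4 libraries exceeded the steps between most neighbours, since Kcnj13 alone ran from 1.21 to 32.2.

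The ratio to Ttr was taken where a gene was well counted, which in the hippocampus at 3 dpi left mainly the high libraries. In libraries with at least 20 counts of the gene, Kcne2 had 4.82 to 6.49 counts per 1000 Ttr counts in 5 hippocampal libraries at 3 dpi, 4.40 to 11.9 in 9 at 29 dpi, 6.29 to 7.22 in 3 thalamic libraries at 3 dpi and 3.98 to 10.5 in 5 at 29 dpi. In those 5 libraries of 3 dpi Ttr ran from 131 to 6099 CPM. Tmem72 had 2.04 to 6.54 per 1000 over 22 libraries and Steap1 1.09 to 2.86 over 19. These ranges hold for those libraries only and say nothing of the low ones. Otx2 had 2.91 to 3489 per 1000 Ttr counts over 87 libraries. Clic6 ran from 11.5 to 20286 over 93 libraries.

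**Figure D4:**
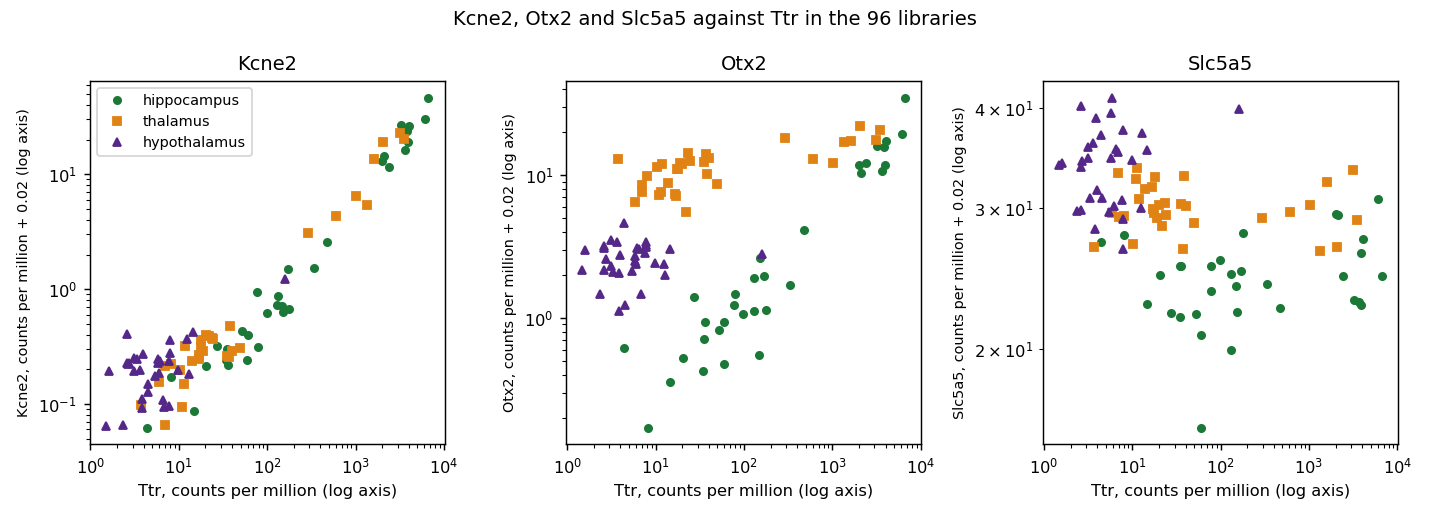
Kcne2, Otx2 and Slc5a5 (each plus 0.02 CPM) against Ttr in the 96 libraries, both axes in CPM on log scales, marked by region. Kcne2 lies along a line with Ttr over the upper range, Otx2 stays between 5.52 and 22.0 CPM in the thalamus while Ttr there runs from 3.71 to 3508, and Slc5a5 stays between 15.9 and 41.2 CPM.

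At 29 dpi the hippocampal libraries were again split, but every group held high and low ones. Ttr was measured at 6691, 170.2, 52.3 and 3899 CPM in the 4 Sham + VH libraries, 77.7, 1993, 14.7 and 336 in those of TBI + VH, 98.3, 35.02, 3672 and 147 in those of Sham + CD and 3230, 2113, 472 and 179 in those of TBI + CD. Kcne2 was measured at 46.5, 1.47, 0.415 and 19.02 CPM in the 4 Sham + VH libraries, 0.924, 13.03, 0.0674 and 1.49 in those of TBI + VH, 0.6003, 0.284, 16.2 and 0.687 in those of Sham + CD and 26.6, 14.3, 2.56 and 0.656 in those of TBI + CD. Slc4a5 was measured at 66.4, 1.84, 0.285 and 26.9 CPM in the 4 Sham + VH libraries, 0.6303, 23.3, 0.135 and 3.46 in those of TBI + VH, 1.201, 0.4101, 20.2 and 1.22 in those of Sham + CD and 30.5, 17.99, 4.64 and 1.16 in those of TBI + CD. Sham + VH replicates 1 and 4, TBI + VH replicate 2, Sham + CD replicate 3 and TBI + CD replicates 1 and 2 were high for all of them, and the groups overlapped throughout.

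Folr1 was measured at 56.4, 2.08, 1.19 and 37.7 CPM in the 4 Sham + VH libraries, 1.51, 20.4, 0.269 and 2.804 in those of TBI + VH, 1.501, 0.505, 27.1 and 1.03 in those of Sham + CD and 30.2, 19.2, 5.16 and 1.93 in those of TBI + CD. Aqp1 was measured at 36.7, 1.103, 0.5701 and 24.9 CPM in the 4 Sham + VH libraries, 1.09, 15.8, 0.539 and 2.12 in those of TBI + VH, 0.6003, 0.505, 17.1 and 1.03 in those of Sham + CD and 18.9, 12.98, 3.54 and 0.694 in those of TBI + CD. Cldn2 was measured at 45.2, 0.858, 0.674 and 17.9 CPM in the 4 Sham + VH libraries, 1.43, 16.2, 0.472 and 2.36 in those of TBI + VH, 1.201, 0.663, 17.6 and 1.11 in those of Sham + CD and 20.1, 17.6, 2.86 and 1.697 in those of TBI + CD. The junction, water channel and receptor genes shared the same high libraries, with TBI + CD replicate 3 in between. Cldn1 was measured at 21.4, 1.96, 1.97 and 10.1 CPM in the 4 Sham + VH libraries, 1.64, 6.82, 2.16 and 3.102 in those of TBI + VH, 2.101, 2.303, 7.404 and 2.48 in those of Sham + CD and 9.59, 8.77, 3.700 and 2.62 in those of TBI + CD. Krt18 was measured at 13.9, 1.23, 1.22 and 8.45 CPM in the 4 Sham + VH libraries, 0.6303, 8.24, 0 and 1.49 in those of TBI + VH, 0.9004, 0.315, 8.28 and 0.649 in those of Sham + CD and 7.55, 5.91, 1.66 and 1.04 in those of TBI + CD. Otx2 was measured at 35.01, 1.96, 0.803 and 11.8 CPM in the 4 Sham + VH libraries, 1.22, 11.7, 0.337 and 1.67 in those of TBI + VH, 1.05, 0.694, 10.7 and 0.534 in those of Sham + CD and 15.9, 10.3, 4.12 and 1.12 in those of TBI + CD. The single library at 0 for Krt18, TBI + VH replicate 3, had 14844929 counts and was also the lowest for Ttr and Kcne2.

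Slc31a1 was measured at 74.7, 19.00, 22.8 and 45.6 CPM in the 4 Sham + VH libraries, 21.3, 42.6, 23.3 and 23.6 in those of TBI + VH, 22.96, 18.01, 41.6 and 20.8 in those of Sham + CD and 45.9, 39.2, 25.3 and 24.8 in those of TBI + CD. Htr2c was measured at 113, 45.1, 42.2 and 66.2 CPM in the 4 Sham + VH libraries, 48.2, 81.5, 16.8 and 43.8 in those of TBI + VH, 38.1, 29.9, 70.1 and 39.4 in those of Sham + CD and 66.7, 66.7, 34.8 and 48.6 in those of TBI + CD. Both kept a base level in low libraries as at 3 dpi. None of the 34 rows tested differed from Sham + VH in TBI + VH, Sham + CD or TBI + CD by edgeR's test, where 0.529%, 0.0% and 0.119% of all genes were called. An unadjusted p under 0.05 was found for 1, 0 and 0 of them, beside 7.98%, 4.81% and 7.4% of all genes. DESeq2 called none of them either, and 0.751%, 0.00844% and 0.267% of all genes. The median log2 fold changes of the rows were -1.70, -1.44 and -0.65. Ttr in TBI + VH stood at -2.18 ± 1.58 (adjusted p = 0.84), so a large difference could not be separated from the spread.

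In the thalamus at 3 dpi Ttr was measured at 1025, 40.2, 3159 and 8.09 CPM in the 4 Sham + VH libraries, 37.3, 35.2, 10.9 and 11.4 in those of TBI + VH, 18.9, 17.6, 604 and 5.92 in those of Sham + CD and 49.4, 20.1, 24.2 and 7.03 in those of TBI + CD. Kcne2 was measured at 6.44, 0.268, 22.8 and 0.203 CPM in the 4 Sham + VH libraries, 0.235, 0.2401, 0.0736 and 0.128 in those of TBI + VH, 0.267, 0.337, 4.31 and 0.137 in those of Sham + CD and 0.287, 0.378, 0.345 and 0.0459 in those of TBI + CD. Sham + VH replicates 1 and 3 and Sham + CD replicate 3 were high in both. Otx2 was measured at 12.2, 13.1, 17.6 and 9.88 CPM in the 4 Sham + VH libraries, 13.98, 12.4, 7.29 and 7.62 in those of TBI + VH, 12.2, 11.1, 13.03 and 6.47 in those of Sham + CD and 8.72, 12.03, 12.6 and 7.63 in those of TBI + CD. It thus ran from 6.47 to 17.6 CPM and the groups overlapped, whereas Ttr ran from 5.92 to 3159 CPM. No row of the 31 tested was called in any group against Sham + VH, where 0.298% of all genes were in TBI + VH and 0.0% and 0.418% in the candesartan groups without and with injury. For TBI + VH, Sham + CD and TBI + CD in turn an unadjusted p under 0.05 was found for 19, 9 and 21 rows, beside 3.84%, 6.87% and 7.14% of all genes, with Ttr at -5.50 ± 1.65 (adjusted p = 0.384) in TBI + VH. DESeq2 called 2, 0 and 8 rows, beside 0.465%, 0.0709% and 0.74% of all genes.

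At 29 dpi Ttr in the thalamus was measured at 10.3, 13.98, 2064 and 3508 CPM in the 4 Sham + VH libraries, 293, 11.8, 16.7 and 16.9 in those of TBI + VH, 3.71, 21.9, 1611 and 17.9 in those of Sham + CD and 6.96, 23.6, 38.2 and 1339 in those of TBI + CD. Kcne2 was measured at 0.178, 0.216, 18.9 and 20.1 CPM in the 4 Sham + VH libraries, 3.08, 0.3001, 0.246 and 0.225 in those of TBI + VH, 0.0789, 0.368, 13.5 and 0.292 in those of Sham + CD and 0.195, 0.357, 0.457 and 5.34 in those of TBI + CD. High libraries were now found in every group. Otx2 was measured at 11.4, 8.74, 22.04 and 20.8 CPM in the 4 Sham + VH libraries, 18.2, 11.9, 7.38 and 7.16 in those of TBI + VH, 12.9, 5.52, 17.4 and 11.1 in those of Sham + CD and 8.57, 14.2, 10.2 and 17.1 in those of TBI + CD. The 5 libraries with the most Ttr were also the 5 highest for Otx2, but the others kept at least 5.52 CPM of it. No row of the 34 tested was called against Sham + VH in any group, where 0.0% of all genes were. An unadjusted p under 0.05 was found for 23 rows in TBI + VH, where 2.47% of all genes had one, and for 2 and 3 in the candesartan groups without and with injury, where 3.18% and 4.81% did. DESeq2 called none of the rows, and 0.0%, 0.0% and 0.146% of all genes.

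Ttr and Kcne2 were low in the hypothalamus. At 3 dpi Ttr was measured at 3.86, 6.84, 3.33 and 7.87 CPM in the 4 Sham + VH libraries, 6.13, 9.896, 7.66 and 1.49 in those of TBI + VH, 12.5, 12.9, 2.71 and 3.62 in those of Sham + CD and 3.82, 2.34, 4.502 and 3.15 in those of TBI + CD. Kcne2 ran from 0.0437 to 0.344 CPM and Otx2 from 1.09 to 3.41. At 29 dpi Ttr was measured at 7.77, 3.96, 1.603 and 2.599 CPM in the 4 Sham + VH libraries, 5.397, 2.63, 5.78 and 2.62 in those of TBI + VH, 14.6, 5.79, 5.93 and 159.6 in those of Sham + CD and 6.54, 4.44, 3.13 and 7.87 in those of TBI + CD. Sham + CD replicate 4 was the single library far above the rest, and it also had the most Kcne2, at 1.21 CPM, against 0.0878 to 0.404 in the other 15. Otx2 ran from 2.10 to 4.59 CPM. None of the 27 rows tested at 3 dpi and of the 29 at 29 dpi was called against Sham + VH, where at most 0.00583% of all genes were. At an unadjusted p under 0.05 the rows numbered 2, 1 and 1 at 3 dpi and 1, 5 and 1 at 29 dpi in TBI + VH, Sham + CD and TBI + CD. Of all genes 3.4%, 2.13% and 3.85% had one at 3 dpi and 2.79%, 13.2% and 3.86% at 29 dpi, so the counts of rows were near the background. DESeq2 called 1 row, in Sham + CD at 29 dpi, where it called 0.0558% of all genes. In the other comparisons it called 0 rows and at most 0.0125% of all genes.

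Several other members were well counted in the hypothalamus or thalamus. At 3 dpi Lbp ran from 1.03 to 20.04 CPM in the hypothalamus, which overlapped its hippocampal range of 2.56 to 42.1. Col8a1 ran from 5.05 to 8.14 CPM in the hypothalamus. Prlr, which hypothalamic cells also make, was at 37.1 to 67.0 CPM in the hypothalamus at 3 dpi, against a hippocampal median of 3.99. Clic6 was at 17.3 to 35.7 CPM there, and Htr2c at 70.8 to 120. In the thalamus at 3 dpi Htr2c was at 93.1 to 158 CPM and Cdh3 had a median of 3.00 CPM, against 0.0477 in the hippocampus. At 3 dpi Slc26a11 was at 16.7 to 25.8 CPM in the thalamus and 17.8 to 22.0 in the hypothalamus, and at 5.61 to 7.52 in the hippocampus, so the hippocampal range lay below both others.

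Ttr was above 250 CPM, a bound set after the values were seen, in 20 of the 96 libraries of the series. These were 4 of 16 hippocampal libraries at 3 dpi, 8 of 16 at 29 dpi, 3 of 16 thalamic libraries at 3 dpi and 5 of 16 at 29 dpi, and none of the hypothalamus. By group, with both regions and times put together, Sham + VH held 9 of 16, TBI + CD 5 of 16 and the other groups 3 of 16 each. Regions of a mouse may be among them, so these counts were not tested. The library just below the bound had 179 CPM and the one just above it 293.

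**Figure D5:**
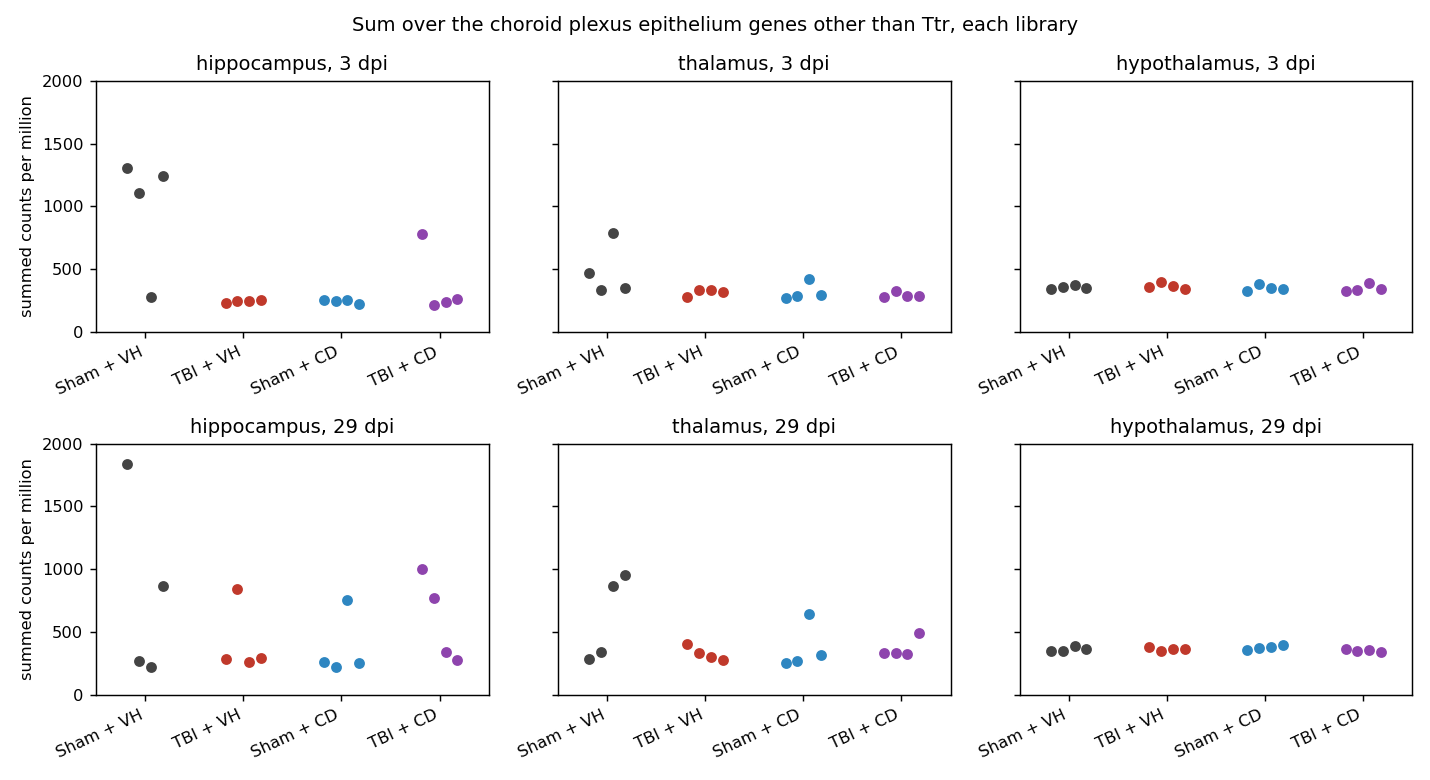
Summed level of the list without Ttr in each library, in CPM on a linear axis from 0, by region, time and group (4 libraries each). Hippocampal libraries reach 1306 at 3 dpi and 1835 at 29 dpi, thalamic ones 787 and 953, and hypothalamic ones stay between 324 and 398.

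Regions were compared within Sham + VH, where 34 rows passed the filter. At 3 dpi the hippocampus was above the hypothalamus in 30 rows, where 23.3% of all genes were, and below it in 1, where 22.8% were. The difference was 9.54 ± 1.83 (adjusted p = 0.000592) for Ttr, 7.14 ± 1.60 (adjusted p = 0.00189) for Kcne2, 5.02 ± 0.75 (adjusted p = 7.62e-05) for Car12 and 2.83 ± 0.48 (adjusted p = 0.000209) for Otx2 on the log2 scale. Of the rows 18 did not overlap with the hippocampus above, against 17.3% of all genes. Slc26a11 was the row below, at -1.37 ± 0.11 (adjusted p = 1.99e-07).

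Against the thalamus 11 rows were higher in the hippocampus at 3 dpi and 2 lower, where 19.2% and 20.3% of all genes were. Car12 at 3.24 ± 0.67, Slc29a4 at 1.68 ± 0.18 and Rbp4 at 1.33 ± 0.22 were the 3 that did not overlap with the hippocampus above, against 18.1% of all genes. Otx2, at 0.16 ± 0.42 (adjusted p = 0.774), and Ttr, at 1.82 ± 1.28 (adjusted p = 0.257), were not called. The count of 13 became 27 without hippocampal replicate 3 and 26 without thalamic replicate 3, and fell as low as 9.

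The thalamus was above the hypothalamus in 14 rows and below it in 1 at 3 dpi, where 13.5% and 13.1% of all genes were. Cdh3 differed by 5.01 ± 0.79 (adjusted p = 0.000311), Otx2 by 2.66 ± 0.48 (adjusted p = 0.000773) and Ttr by 7.72 ± 1.71 (adjusted p = 0.00343), and Slc29a4 was lower at -0.79 ± 0.18 (adjusted p = 0.004). The count of 15 became 6 without thalamic replicate 3 and 9 without hypothalamic replicate 2 or 3. At 29 dpi the hippocampus was above the hypothalamus in 22 rows, where 22.1% of all genes were, and below it in 1, where 23.5% were. It was above the thalamus in 3 and below in 2, where 19.0% and 20.7% were, and the thalamus was above the hypothalamus in 14 and below in 1, where 16% and 16.8% were. Ttr differed by 9.54 ± 2.18, 0.99 ± 1.47 and 8.54 ± 2.11 in these comparisons. The count of 23 for hippocampus against hypothalamus became 14 without hippocampal replicate 1, and the count of 15 for thalamus against hypothalamus became 5 without thalamic replicate 4 or hypothalamic replicate 1, 6 without hypothalamic replicate 3, 9 without hypothalamic replicate 2 or 4 and 10 without thalamic replicate 3, and reached 22.

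The list was among the most variable in the hippocampus. The standard deviation of log2 CPM within groups, pooled over the 4 groups of 4, had a median of 1.14 over the 35 rows at 3 dpi and 0.14 over all 16756 genes. Of the rows 27 lay above the 99th percentile of all genes. At 29 dpi the median was 1.80 over 34 rows and 26 lay above it, with Ttr at 2.87 and Slc4a5 at 2.73. In the thalamus 13 of 31 and 21 of 34 rows lay above it at 3 and 29 dpi, and Ttr at 29 dpi had the largest deviation of all genes, 3.52. In the hypothalamus only 3 of 27 and 3 of 29 did. Slc5a5 and Slc26a11 had 0.22 and 0.12 in the hippocampus at 3 dpi.

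Other genes of fluid secretion and transport, a list of 21 that were not members, had medians nearer to 0. In the hippocampus at 3 dpi 8 fell and 1 rose in TBI + VH, 9 fell in Sham + CD and 5 fell and 1 rose in TBI + CD, with medians of -0.34, -0.59 and -0.37. Of all genes 1.72%, 1.41% and 1.86% fell and 8.99%, 0.0836% and 10.3% rose. Among those that fell in TBI + VH, named after their values were seen, were Abca4, a retinoid transporter, with a log2 fold change of -3.70 ± 0.75, Enpp2, the secreted lipase autotaxin, at -3.18 ± 0.68 and Spint2, a protease inhibitor, at -1.19 ± 0.27. The summed level of the list was 5565 to 6050 CPM in Sham + VH replicates 1, 2 and 4 and 4717 in TBI + CD replicate 1, and 3165 to 3561 in the other 12 libraries. Enpp2 alone ran from 104 to 2217 CPM, so the sum does not show that the whole list split. Some of the most abundant gave no call in TBI + VH. Atp1b1, a beta subunit of the sodium pump, stood at -0.11 ± 0.05, Slc4a10, a bicarbonate transporter, at -0.28 ± 0.08 and Car2, a carbonic anhydrase, at 0.15 ± 0.09. The level of Atp1b1, 1525 to 1810 CPM over the 16 libraries, did not split.

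Markers of neighbouring cells were set beside these results. The 10 markers of motile cilia and ependyma, the ventricle lining, summed to 64.4 to 88.5 CPM in Sham + VH and 47.3 to 69.5 in TBI + VH in the hippocampus at 3 dpi. With candesartan the sums were 20.8 to 50.2 CPM (Sham + CD) and 25.6 to 84.6 CPM (TBI + CD). The numbers that fell were 1 for TBI + VH, 3 for Sham + CD and 2 for TBI + CD, where 1.72%, 1.41% and 1.86% of all genes fell. Sham + VH replicate 3, low for the choroid plexus, had 82.7 CPM of them. The 9 markers of meninges and fibroblasts summed to 86.1 to 175, 79.9 to 134, 55.1 to 121 and 88.7 to 145 CPM, and 1, 0 and 1 of them fell. Endothelial and hippocampal neuron markers did not fall in any of the 3 comparisons, and 2 of 5 endothelial ones rose in TBI + CD, where 10.3% of all genes rose. No defining marker of these lists was at 0 throughout. How far the amount of plexus in each dissection took part in the results was not tested.

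Genes outside the list followed it closely. Over the 16 hippocampal libraries at 3 dpi the 10 with the highest Pearson r with the mean log2 CPM of the list were Abca4, Enpp2, Ace, Defb11, 1500015O10Rik, Slc2a12, C1qtnf5, Tmprss11a, Epn3 and Slc28a3, with r from 0.97 to 0.99. At 29 dpi they were Rbm47, Enpp2, Drc7, Rdh5, AK013627, Col8a2, Prr32, Ace, Lmx1a and Abca4, with r from 0.98 to 0.99. Abca4, Enpp2 and Ace were on both. Enpp2 ran from 104 to 2217 CPM at 3 dpi and from 107 to 3676 at 29 dpi. Ace, the angiotensin converting enzyme, ran from 9.27 to 124 CPM and from 9.84 to 148. These r values describe 16 libraries that fall into high and low ones, and carry no test.

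Some members overlap other genes in GENCODE vM21. Folr1 overlaps Anapc15, Otx2 overlaps Otx2os1, Kcnj13 lies inside Gigyf2 and Slc31a1 overlaps Cdc26, each on the other strand, and the strand setting of the counting was not given in the sources used here. Without strand, reads of such pairs cannot be told apart, so their lowest values are uncertain. Clic6 overlaps 2410124H12Rik on its own strand. The 2 Wdr86 rows differed in level, with highest hippocampal values at 3 dpi of 7.99 and 0.994 CPM.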

How the data were processed

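Libraries were poly(A) selected and stranded, and the authors aligned paired reads to mm10 with MapSplice and counted them per gene with HTSeq 0.9.1. The deposited values are raw counts, 1 table per time of 32594 rows and 48 libraries. The gene annotation, strand setting and treatment of multiply mapped reads were not given in the sources used here. Total counts limit the precision of low genes, and 3 counts served as a floor.

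Each region and time was fitted over its 16 libraries with edgeR 4.0.16 in R 4.3.3 (TMM factors, filterByExpr, quasi-likelihood F test, Benjamini-Hochberg adjustment over all genes tested). Calls needed an adjusted p under 0.05 together with a log2 change of more than 0.32 either way. Standard errors were derived from the F statistic. Regions were compared over the 12 Sham + VH libraries of a time. Alternatives were DESeq2 1.42.0, other scaling, no low-count filter, robust estimation, a replicate block, the compared groups alone, and leaving out each library. Scripts were tested on simulated data. The 34 symbols and the marker lists were chosen with earlier results of these data known. All 34 members are named, and per-library values are given for 11 of them. No 2 replicates had identical counts. Sequences are from RefSeq on GRCm38.p6 and gene positions from GENCODE. A gene of a comparison list is not reported here.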

Additional observations from a re-analysis of the deposited data

Results flagged for a closer look

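Of 136 combinations of a gene and a group of 4 libraries, 17 held a library far from its nearest neighbor. Its gap exceeded Dixon's 95% critical share of the range on the log2(CPM + 0.1) scale. Chance alone marks about 1 in 20 independent combinations, but here the same libraries were examined for several genes. Sham + VH replicate 3 of the hippocampus at 3 dpi stood far below the other Sham + VH libraries for 10 genes. It had 151 CPM of Ttr, 0.608 of Kcne2, 3.12 of Folr1, 2.59 of Otx2 and 1.90 of Cldn2. It had 1.38 CPM of Aqp1, 1.26 of Slc4a5, 1.26 of Krt18, 21.6 of Slc31a1 and 1.62 of Cldn1. These genes are not independent of each other.

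In the same region and time TBI + CD replicate 1 stood above its group for Cldn1 at 8.06 CPM, and TBI + VH replicate 2 below its group for Htr2c at 33.7 CPM. In the hippocampus at 29 dpi Sham + CD replicate 3 stood above its group at 17.6 CPM of Cldn2 and 7.40 CPM of Cldn1, and TBI + VH replicate 2 at 42.6 CPM of Slc31a1. In the thalamus at 29 dpi TBI + VH replicate 1 stood above its group at 293 CPM of Ttr and 3.08 CPM of Kcne2.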

How the results depend on the processing

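In the hippocampus at 3 dpi the 31 rows that fell in TBI + VH stayed within 28 to 32 when any library was left out. The 26 of Sham + CD became 3 with robust estimation and ran from 0 to 32 with a library left out. The 12 of TBI + CD against Sham + VH became 4 with robust estimation, 2 with only the groups compared and 29 with a replicate block, and ran from 2 to 32. The 4 of TBI + CD against Sham + CD became 12 with DESeq2 and 1 with robust estimation, and ran from 0 to 17. The interaction, called for 0 rows, was called for 25 with DESeq2, 24 with no low-count filter and 18 with the replicate block, and ran from 0 to 30. DESeq2 also called 2 and 8 rows in the thalamus at 3 dpi (TBI + VH and TBI + CD) and 1 in the hypothalamus at 29 dpi (Sham + CD). Among regions at 3 dpi, 13 calls for hippocampus against thalamus became 8 with the block and ran from 9 to 27, and 15 for thalamus against hypothalamus became 8 with robust estimation and 6 with the block and ran from 6 to 21. At 29 dpi 15 calls for thalamus against hypothalamus became 4 with robust estimation and ran from 5 to 22, and 23 for hippocampus against hypothalamus ran from 14 to 28. The cause was not tested.

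Same-numbered libraries had a median r of deviations of 0.01 in the hippocampus at 3 dpi, where 6 of 16 correlated best with their own number. In the thalamus at 3 dpi the median was 0.13, against -0.03 for other numbers, and 10 of 16 did, a hint of pairing from the data. In every region and time some same-numbered pairs had a negative r (lowest -0.15 to -0.62), so the numbers were not taken to pair the samples. For the 66 single-gene results recomputed, a change of direction was counted only where the main or the alternative fit gave a call. None was found under the alternatives run, and a change of sign between fits without a call was not counted. A call was lost for 9 of the 66 with robust estimation, for 1 with only the groups compared and in 70 fits that left out a library. One was gained for 3 with DESeq2, 7 with no low-count filter, 8 with the replicate block, 2 with only the groups compared, 1 with RLE size factors and in 28 fits that left out a library. With 4 libraries a group and levels that differ by over 100 times within a group, differences as large as those of Ttr at 29 dpi could not be resolved, and genes such as Cdh3, with 0 to 3 counts in low libraries, have uncertain fold changes.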

Other observations

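Gh and Prl, the pituitary hormone genes, were also among the most variable genes within groups. In the hippocampus at 29 dpi Gh reached 209 CPM and Prl 59.2 CPM in Sham + VH replicate 3, with medians of 0.210 and 0.0835 over the 16 libraries. In the hypothalamus at 3 dpi Gh reached 325 CPM and Prl 53.9 CPM in Sham + VH replicate 4. By Ttr these libraries ranked 14 and 4 among the 16 of their sets, at 52.3 and 7.87 CPM. In the hippocampus at 3 dpi Gh was highest in Sham + VH replicate 4, at 30.02 CPM, and Prl in TBI + CD replicate 1, at 4.97 CPM. Both of the latter libraries were among the 4 with the most Ttr.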
